A study of Mus musculus with 14 samples.

Results

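The 47 genes described here act in G2 and mitosis, the last part of the cell cycle, in which a cell that has copied its DNA condenses its chromosomes, pulls them apart and divides. They were chosen by name, by a rule that uses no measured value but from a list drawn up with earlier results of these data known, and all 47 were found among the 54332 gene rows of the table and passed the filter used for testing, which kept the 13110 genes averaging 1 TPM or more across all libraries. RNA was measured in EpdSCs, the basal stem cells of the epidermis, as SOX9 was switched on in them, with 2 biological replicates at each of 5 timepoints. Every group carried the genotype K14rtTA; TRE-myc-Sox9 on CD1, in which the *Krt14* promoter drives the doxycycline (DOX)-dependent activator in the skin epithelium and DOX then switches on a MYC-tagged *Sox9*, and every library was labelled male. D0 (P21) preceded induction, and W1 (P28), W2 (P35) and W6 (P63) came from mice kept on DOX for those weeks. The W12 libraries came from newborn epidermis grafted onto Nude female hosts and left to heal before 12 weeks of DOX, so W12 differs from D0 to W6 by grafting, host and age as well as by time on DOX, and these cannot be told apart. Age also rose with time on DOX up to W6, and no age-matched cells without DOX were analysed here, so age and SOX9 cannot be told apart either. Cells were sorted as CD49f-high, Ly6A-high and CD34-negative, after removal of endothelial, immune, melanocyte and fibroblast cells by CD31, CD45, CD117 and CD140a.

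Entry into mitosis is driven by the kinase CDK1 bound to cyclin A or cyclin B, and exit follows when the anaphase-promoting complex with CDC20 marks cyclin B and securin for destruction. Most mitotic genes are silent in resting cells and are transcribed in G2 by B-MYB (encoded by *Mybl2*) with the MuvB complex and then by FOXM1. Their mRNAs are broken down as cells leave mitosis, so in a tissue their level follows the cells that are in, or close to, G2 and mitosis. In basal epidermis these divisions renew the stem cell layer and supply the layers above. In bulk RNA a larger share of cells in mitosis and more mitotic RNA per cell cannot be told apart.

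The known common feature of these genes lies in their promoters, where MuvB, B-MYB and FOXM1 complexes act through the cell cycle genes homology region and NF-Y acts through CCAAT boxes. Stretches of 150 bases, from 120 before to 30 after the start of transcription, are given 5′ to 3′ for *Cdk1*, *Ccnb1*, *Ccnb2*, *Cdc20* and *Kif23*, whose mean levels were lowest at W1 and highest at W6, and for *Mybl2*, which was lowest at D0. Capitals mark TTTGAA, the core of the cell cycle genes homology region, and CCAAT, each on either strand (TTCAAA and ATTGG where read from the other one). The sequences are RefSeq's on GRCm38.p6, from chr10:69352883-69353032, minus strand, chr13:100786457-100786606, minus strand, chr9:70421525-70421674, minus strand, chr4:118437314-118437463, minus strand, chr9:61946770-61946919, minus strand, and chr2:163054515-163054664, plus strand.
Cdk1: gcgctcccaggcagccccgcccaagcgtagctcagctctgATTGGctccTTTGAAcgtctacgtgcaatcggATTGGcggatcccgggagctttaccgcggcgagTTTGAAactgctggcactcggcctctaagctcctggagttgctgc
Ccnb1: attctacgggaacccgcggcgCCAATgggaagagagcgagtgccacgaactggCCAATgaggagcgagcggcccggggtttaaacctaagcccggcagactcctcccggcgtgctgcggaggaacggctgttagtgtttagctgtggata
Ccnb2: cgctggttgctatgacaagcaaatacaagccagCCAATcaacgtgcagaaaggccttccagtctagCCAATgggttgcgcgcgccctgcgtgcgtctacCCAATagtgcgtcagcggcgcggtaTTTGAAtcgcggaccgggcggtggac
Cdc20: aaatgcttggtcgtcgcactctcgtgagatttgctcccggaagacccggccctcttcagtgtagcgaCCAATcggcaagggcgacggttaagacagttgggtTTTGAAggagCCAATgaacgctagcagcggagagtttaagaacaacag
Kif23: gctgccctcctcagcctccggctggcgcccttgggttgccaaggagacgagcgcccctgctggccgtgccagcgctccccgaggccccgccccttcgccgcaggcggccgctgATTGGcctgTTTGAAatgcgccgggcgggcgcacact
Mybl2: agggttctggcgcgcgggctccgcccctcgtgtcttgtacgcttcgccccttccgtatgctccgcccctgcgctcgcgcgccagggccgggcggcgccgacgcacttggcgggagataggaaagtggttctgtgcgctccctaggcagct
*Ccnb2* shows 3 CCAAT boxes before a TTTGAA at its start, *Cdc20* a TTTGAA between CCAAT boxes, and *Kif23* an inverted CCAAT box just before TTTGAA. *Ccnb1* holds CCAAT boxes alone and *Mybl2* neither motif.

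Promoters of 300 bases (250 before to 50 after the start) were matched to 38 of the 47 genes, as 40 promoters. TTTGAA stood in 30 of them (75%), against 17.9% of all 32851 mouse promoters of that length and 12.5% of the 32 promoters matched to a list of S phase and DNA replication genes. CCAAT stood in 32 (80%), against 37.4% of all promoters and 59.4% of the S phase promoters. Both motifs stood together in 27 (67.5%), against 6.95% and 9.38%. TTCCCGCC, the core of an E2F site, stood in 0 of the 40, against 2.19% of all promoters and 18.8% of the S phase promoters. *Birc5*, *Mybl2*, *Nuf2*, *Nusap1* and *Pttg1* held neither TTTGAA nor CCAAT in this window. *Bub1*, *Ccnb1*, *Cdc25b*, *Cenpe* and *Nek2* held CCAAT without TTTGAA. Each motif was searched on both strands and counted whether or not it shared letters with another, and no test was run on these matches.

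Levels are TPM, transcript levels that correct for transcript length and sum to 1000000 in each library, so they are shares of the RNA measured, and the depth behind them is unknown. The basal keratins *Krt14* (19997 to 37666 TPM) and *Krt5* (7343 to 14774 TPM) were high in every library, but of 6 basal markers 5 were called lower at W6 against D0 (*Col17a1*, *Itga6*, *Itgb4*, *Krt5* and *Trp63*, with a list median of −1.11) and 4 at W12, where 14.1% and 25.1% of all genes tested were called lower, *Col17a1* standing at 686 and 1083 TPM at D0, 217 and 320.2 TPM at W6 and 224 and 283 TPM at W12. Hair matrix and shaft markers (10 genes) summed to 8.45 to 18.1 TPM. D0 replicate 2, labelled male, listed *Xist*, which is transcribed from the inactive X of females, at 4.61 TPM, with *Ddx3y* of the Y chromosome listed at 0.0278 TPM, so it goes against its label. Immediate-early and stress genes (11) summed to 24796 and 40150 TPM at D0, against 4420 to 10728 TPM in the later libraries, 8 of the 11 being called lower at W1, where 4.1% of all genes tested were. Although CD31-positive cells had been gated out, endothelial markers (6) summed to 59.8 and 131.5 TPM at W12, against 0.256 to 1.74 TPM elsewhere, and *Xist* stood at 5.51 and 3.50 TPM there. *Cd34*, whose product was gated out too, stood at 16.5 and 32.001 TPM at W12 and 2.66 and 5.04 TPM at W6, against 0.0475 to 0.383 TPM before, and was called higher than at D0 at both. Melanocyte markers (6) summed to 12.8 and 11.2 TPM at W12, against 1.27 to 11.8 TPM elsewhere, with *Dct* and *Tyrp1* called higher than at D0. Suprabasal markers (7) summed to 11938 to 13558 TPM at W6 and W12, against 1912 to 7349 TPM before, of which *Krtdap* alone made up 9986 to 11060.2 TPM and 647 to 5209 TPM. *Krtdap*, *Ivl* and *Sbsn* were called higher than at D0 at W6 and W12, and *Flg* at W6, while *Krt10* stood at 1335 and 871 TPM at D0, 568 and 966 TPM at W6 and 1041 and 699.97 TPM at W12, and *Lor* was called lower at W12. Fibroblast markers (6) summed to 13.7 and 28.1 TPM at W12 and 52.2 TPM in W6 replicate 2, of which *Dcn* made up 51.2 TPM, with *Col1a1* at 0.143 TPM. The part of these differences in the results was not tested, and counts of the 47 genes called against D0 or at W12 are given with and without those libraries.

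Together the 47 genes followed a trough and a peak. Their summed level was 2833 and 1810.1 TPM in the D0 libraries, 1459.5 and 1240.1 TPM at W1, 1921 and 2044 TPM at W2, 3281 and 3417 TPM at W6, and 2515 and 2570.0 TPM at W12. W1 was lowest and W6 highest, and neither overlapped any other timepoint, while the D0 libraries stood on both sides of W2 and W12. The mean level was lowest at W1 for 40 of the 47 genes and highest at W6 for 42. *Mybl2* was the one gene lowest at D0, *Prc1* the one lowest at W2, and *Cdc25b*, *Foxm1*, *Plk1*, *Nek2* and *Ncapd2* were lowest at W12. *Prc1*, *Anln* and *Ect2* were highest at D0, and *Nusap1* and *Pttg1* at W12. D0 replicate 1 exceeded D0 replicate 2 in 45 of the 47 genes, the exceptions being *Cdc25b* and *Nek2*, with a median difference of replicate 2 from replicate 1 of −0.55 in log2(TPM + 1). W1 replicate 1 likewise exceeded W1 replicate 2 in 44 genes, by a smaller median (−0.23). A moderated F test over the timepoints (limma, Benjamini-Hochberg adjustment over all genes tested) called 43 of the 47 variable, where 57.5% of all genes tested were called. The 4 not called were *Cenpf*, *Mki67*, *Smc4* and *Top2a*.

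**Figure D1:**
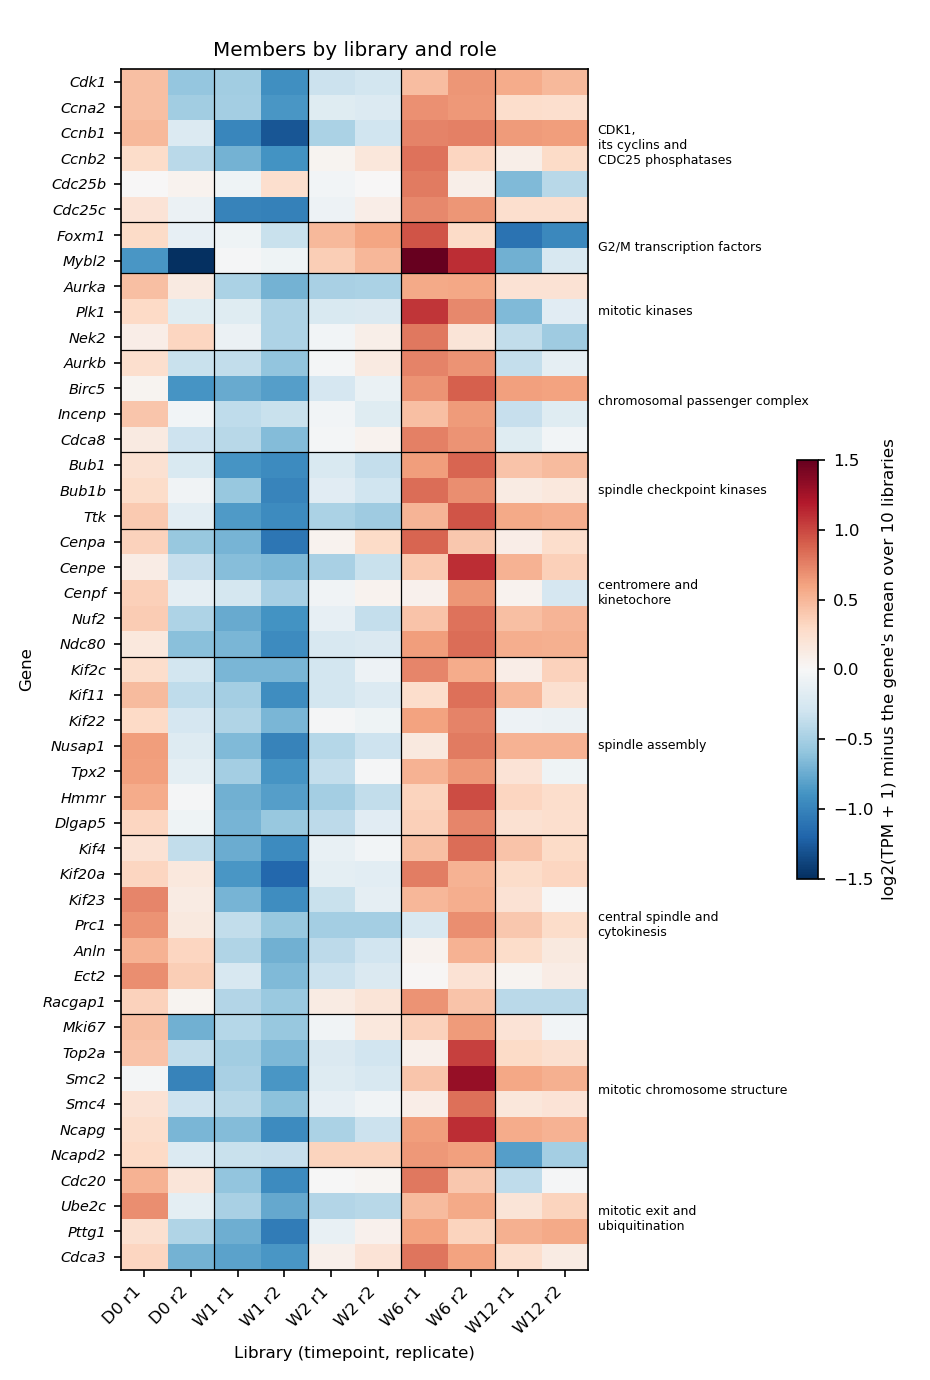
Heat map of the 47 genes (rows, grouped by role) in the 10 libraries (columns, 2 replicates r1 and r2 per timepoint), as log2(TPM + 1) minus each gene's mean over the libraries, with red above and blue below that mean and the colours saturating at 1.5. W1 is blue in nearly all rows and W6 red, D0 replicate 1 is redder than D0 replicate 2 in 45 rows, and *Mybl2*, *Foxm1* and *Ncapd2* depart from the common pattern at D0 or W12.

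CDK1 and its regulators hold some of the most abundant of these mRNAs. *Cdk1* (chr10:69335146-69352938), the mitotic kinase, stood at 176 and 85.3 TPM at D0, 88.5 and 67.0 at W1, 102 and 106 at W2, 177 and 203 at W6, and 188 and 179 at W12. *Ccnb1* (chr13:100778650-100786570), cyclin B1, which carries CDK1 into the nucleus at mitotic entry, stood at 131 and 80.6 TPM at D0, 46.7 and 37.5 at W1, 66.6 and 75.4 at W2, 156 and 158 at W6, and 145 and 145 at W12. For both genes the W6 libraries lay above those of W1 and W2 without overlap, and for *Ccnb1* the W1 libraries lay below every other library. *Ccna2* (cyclin A2) ranged from 31.3 to 94.1 TPM, *Ccnb2* (cyclin B2) from 29.4 to 98.1 TPM, and *Cdc25c*, a phosphatase that removes the inhibitory phosphates from CDK1, from 8.13 to 29.4 TPM. *Cdc25b*, the phosphatase that starts that step, did not share the trough: its W1 libraries (38.3 and 48.0 TPM) spanned those of D0 (40.2 and 41.7 TPM), and its lowest level was at W12 (25.0 and 29.7 TPM).

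The G2/M transcription factors are represented by 2 genes. *Mybl2* (chr2:163054687-163084688) stood at 5.99 and 3.01 TPM at D0, 11.6 and 11.2 at W1, 15.498 and 17.0 at W2, 38.4 and 26.6 at W6, and 6.77 and 9.87 at W12. It was lowest at D0, already above both D0 libraries at W1, highest at W6, and at W12 again below both W1 libraries, though above both D0 libraries. *Foxm1* (chr6:128362967-128376146), the forkhead factor of G2, stood at 19.2 and 14.1 TPM at D0, 14.8 and 12.1 at W1, 22.04 and 23.8 at W2, 30.7 and 19.0 at W6, and 6.68 and 7.42 at W12. Its W2 libraries lay within the range of its W6 libraries, and its W12 libraries lay below all others.

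Mitotic kinases and the chromosomal passenger complex followed the common pattern up to W6 and then split. *Aurka* (chr2:172356190-172370535), the centrosome kinase Aurora A, stood at 39.3 and 31.4 TPM at D0, 20.2 and 17.0 at W1, 20.0 and 20.2 at W2, 42.9 and 43.1 at W6, and 33.3 and 33.4 at W12. Its W1 and W2 libraries were alike and lay below both D0 libraries. *Plk1* (chr7:122159439-122169873), polo-like kinase 1, which acts from mitotic entry to cytokinesis, stood at 40.0 and 28.5 TPM at D0, 28.5 and 23.1 at W1, 27.5 and 27.8 at W2, 69.3 and 54.0 at W6, and 20.1 and 28.6 at W12, so its W6 libraries exceeded all others. *Nek2*, a centrosome-separating kinase, ranged from 9.69 to 25.9 TPM and was lowest at W12. *Birc5* (chr11:117849251-117855743), survivin, the gene of the passenger complex with the highest mean over the 10 libraries, stood at 112 and 58.4 TPM at D0, 64.1 and 61.1 at W1, 90.8 and 101 at W2, 174 and 203 at W6, and 167 and 165 at W12. *Aurkb* (chr11:69045647-69051664), Aurora B, the kinase of that complex, stood at 48.2 and 31.8 TPM at D0, 30.9 and 26.3 at W1, 39.4 and 44.1 at W2, 68.1 and 64.9 at W6, and 31.1 and 36.7 at W12. At W12 *Birc5* lay above both D0 libraries, while *Aurkb* overlapped them. The complex's scaffold *Incenp* (26.7 to 55.3 TPM) and borealin, encoded by *Cdca8* (43.2 to 117 TPM), were likewise highest at W6.

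The spindle checkpoint kinases *Bub1* (3.56 to 15.0 TPM), *Bub1b* (10.7 to 40.3 TPM) and *Ttk* (5.50 to 23.2 TPM), which hold back anaphase until kinetochores are attached, had their lowest library at W1 and their highest at W6. At the centromere and kinetochore, *Cenpa*, the centromeric histone H3 variant, was the most abundant, at 170.5 and 89.9 TPM at D0, 82.5 and 62.8 at W1, 139 and 164 at W2, 247 and 178 at W6, and 143 and 161 at W12. Its W1 libraries were below all others. *Ndc80*, which binds microtubules at the kinetochore, ranged from 5.52 to 21.5 TPM, its partner *Nuf2* from 9.18 to 32.2 TPM, the kinetochore motor *Cenpe* from 3.53 to 14.7 TPM, and *Cenpf* from 12.03 to 27.95 TPM.

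Among the genes of spindle assembly, *Kif22*, a chromosome-arm motor, was the most abundant, at 55.3 and 37.7 TPM at D0, 32.5 and 27.5 at W1, 44.2 and 42.8 at W2, 68.8 and 76.1 at W6, and 42.7 and 42.0 at W12. *Kif11* (Eg5, the motor that separates the spindle poles), *Kif2c* (a microtubule depolymerase), *Nusap1*, *Tpx2* (the activator of Aurora A), *Hmmr* and *Dlgap5* had their lowest library at W1, and their highest at W6. In this group the lowest value was 7.31 TPM (*Kif11*, W1 replicate 2). The central spindle and cytokinesis genes (7) were nearly as abundant at D0 (446 and 336 TPM in sum) as at W6 (371 and 442 TPM). *Prc1*, which bundles antiparallel microtubules of the central spindle, had the highest mean of the group over the 10 libraries, though not at W2, at 127 and 87.98 TPM at D0, 61.2 and 53.1 at W1, 55.5 and 55.6 at W2, 66.7 and 129 at W6, and 105 and 96.6 at W12. *Kif23* (chr9:61915905-61946774), a subunit of centralspindlin, stood at 95.7 and 62.7 TPM at D0, 35.1 and 29.6 at W1, 45.6 and 52.1 at W2, 81.3 and 84.1 at W6, and 66.8 and 57.3 at W12. *Kif20a* (chr18:34624613-34633277), a motor that takes the passenger complex to the midzone, stood at 38.2 and 33.9 TPM at D0, 16.1 and 12.9 at W1, 27.4 and 27.3 at W2, 52.6 and 44.0 at W6, and 37.1 and 38.4 at W12. For *Kif23* and *Kif20a* both W1 libraries lay below all other libraries. *Anln* (anillin, 28.8 to 69.8 TPM), *Ect2* (the RhoA exchange factor that starts the furrow, 13.8 to 37.0 TPM), *Racgap1* (the other centralspindlin subunit, 35.9 to 85.9 TPM) and *Kif4* (4.03 to 16.3 TPM) complete the group.

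In mitotic chromosome structure, *Mki67* (chr7:135689784-135716361), the proliferation antigen Ki-67 that coats mitotic chromosomes, stood at 25.4 and 10.7 TPM at D0, 13.3 and 12.001 at W1, 17.6 and 20.5 at W2, 23.4 and 29.1 at W6, and 21.3 and 17.8 at W12. *Top2a* (chr11:98992943-99024189), the topoisomerase that untangles sister chromatids, stood at 69.2 and 39.4 TPM at D0, 35.3 and 31.7 at W1, 43.6 and 41.7 at W2, 53.6 and 105 at W6, and 62.3 and 60.6 at W12. For both genes D0 replicate 1 lay between the W6 libraries. D0 replicate 2 lay below both W1 libraries for *Mki67*, and between the W1 and the W2 libraries for *Top2a*. The D0 mean of each gene thus stands for neither library. *Smc4*, a core subunit of condensin, had the highest mean of the group over the 10 libraries, though not at W6 or W12, at 84.6 and 58.4 TPM at D0, 54.3 and 47.4 at W1, 66.8 and 70.4 at W2, 78.3 and 130.2 at W6, and 82.0 and 84.1 at W12. *Smc2* (chr4:52439243-52488260), its condensin partner, stood at 65.3 and 32.6 TPM at D0, 47.1 and 35.7 at W1, 58.0 and 56.3 at W2, 89.3 and 167 at W6, and 99.6 and 96.5 at W12. The W6 replicates of *Top2a* and *Smc2* differed widely, and those of the condensin I subunits *Ncapd2* and *Ncapg* stood at 30.7 and 29.97 TPM and 18.4 and 26.2 TPM. *Ncapd2* fell to 10.3 and 13.1 TPM at W12, below every other library.

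Mitotic exit is represented by the gene with the highest mean of the 47 over the 10 libraries, though not at W2 or W12, *Ube2c*, the ubiquitin-conjugating enzyme of the anaphase-promoting complex, at 243 and 135 TPM at D0, 106 and 87.1 at W1, 109.8 and 111 at W2, 209 and 223 at W6, and 171 and 189 at W12. *Cdc20* (chr4:118432901-118437352), the activator of that complex, stood at 178 and 141 TPM at D0, 82.3 and 64.3 at W1, 124 and 126 at W2, 216 and 164 at W6, and 95.01 and 123 at W12. *Pttg1*, securin, ranged from 61.8 to 197 TPM and *Cdca3* from 42.5 to 138 TPM. All 4 genes were lowest at W1, and *Cdc20* at W12 lay below both D0 libraries.

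**Figure D2:**
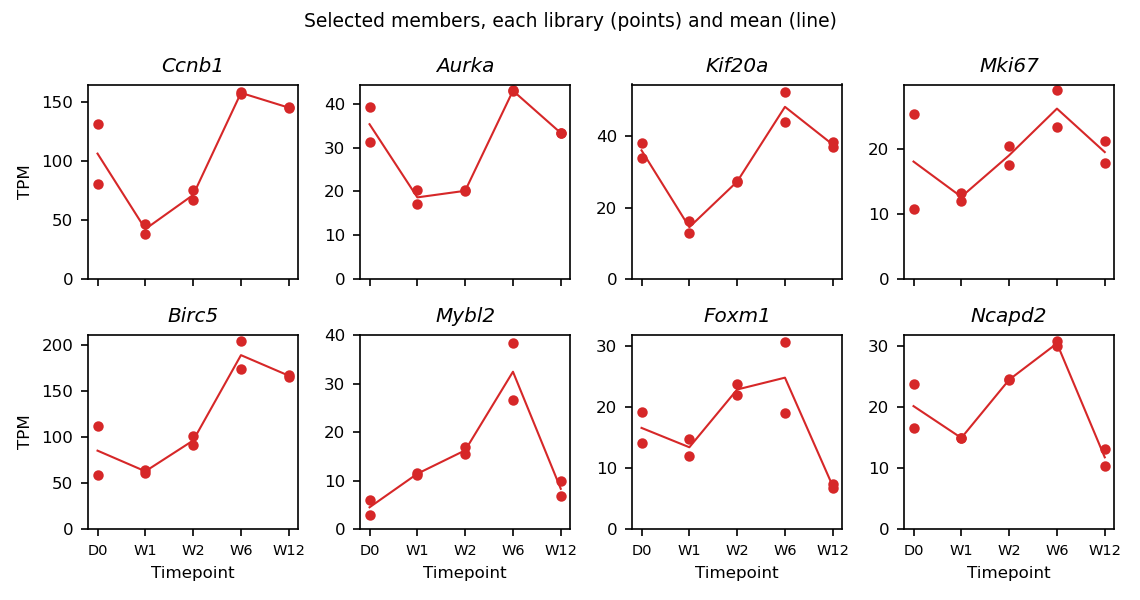
TPM of 8 genes (linear axes from 0) at the 5 timepoints, each point being a library and the line joining the means of 2 replicates. *Ccnb1*, *Aurka* and *Kif20a* fall at W1 and are high again at W6, *Mki67* has a wide D0 spread (25.4 and 10.7 TPM), *Birc5* stays high at W12 (167 and 165 TPM), and *Mybl2*, *Foxm1* and *Ncapd2* are low at W12.

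At W1, 14 of the 47 genes were called lower than at D0 and 1, *Mybl2*, higher, where 4.1% of all genes tested were called lower and 5.79% higher. Those called lower were the checkpoint kinases *Bub1*, *Bub1b* and *Ttk*, the cytokinesis genes *Anln*, *Ect2*, *Kif20a*, *Kif23* and *Racgap1*, and *Ccnb1*, *Cdc25c*, *Aurka*, *Dlgap5*, *Hmmr* and *Cdc20*. Calls are from limma on log2(TPM + 1), fitted to all genes tested and all 10 libraries, at a Benjamini-Hochberg adjusted p under 0.05, and differences are given on that scale with their SE. *Ccnb1* changed by −1.28 ± 0.22, adjusted p = 0.0083. *Kif20a* changed by −1.26 ± 0.16, adjusted p = 0.00229. *Kif23* (−1.24 ± 0.21, adjusted p = 0.00735) and *Cdc20* (−1.11 ± 0.21, adjusted p = 0.0119) fell by similar amounts. *Mybl2* rose by 1.23 ± 0.30, adjusted p = 0.034.

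The difference was negative in 45 of the 47 genes and both W1 libraries lay below both D0 libraries in 37, where 20.7% of all genes tested did so. The median over the 47 was −0.69, against 0.09 over all genes tested. None of the 6 chromosome structure genes was called, with −0.37 ± 0.33, adjusted p = 0.533 for *Mki67* and −0.63 ± 0.32, adjusted p = 0.264 for *Top2a*. *Cdk1* (−0.66 ± 0.29, adjusted p = 0.197), *Plk1* (−0.38 ± 0.23, adjusted p = 0.344), *Aurkb* (−0.44 ± 0.21, adjusted p = 0.215) and *Foxm1* (−0.28 ± 0.25, adjusted p = 0.527) did not pass. Without D0 replicate 1, 8 genes were called lower and 1 higher, with a median of −0.37. Without D0 replicate 2, the library that goes against its label, 35 were called lower and 0 higher, with a median of −1.06. Without W1 replicate 2, which held the lowest value of 36 genes, 2 were called lower, and 9 were without W1 replicate 1 or with either W2 replicate left out. With all genes above 0 TPM tested 4 of the 47 were called, with an absolute log2 change of at least 1 required 9 were, and with only the libraries of D0 and W1 in the limma fit 0 were, 23 then differing at an unadjusted p under 0.05. The share of all genes tested that did so was not counted, so the 23 cannot be set against it.

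At W2 few of the genes were called against D0. *Anln* (−0.76 ± 0.19, adjusted p = 0.028), *Aurka* (−0.77 ± 0.16, adjusted p = 0.0132) and *Ect2* (−0.80 ± 0.19, adjusted p = 0.0247) were called lower, where 6.64% of all genes tested were called lower. *Mybl2* was higher by 1.71 ± 0.30, adjusted p = 0.00643, where 9.06% were called higher. The other 43 did not pass, among them *Ccnb1* (−0.53 ± 0.22, adjusted p = 0.138), *Cdc20* (−0.34 ± 0.21, adjusted p = 0.301), *Cdk1* (−0.24 ± 0.29, adjusted p = 0.633), *Plk1* (−0.28 ± 0.23, adjusted p = 0.457) and *Top2a* (−0.29 ± 0.32, adjusted p = 0.597), with *Mki67* at 0.18 ± 0.33, adjusted p = 0.754, *Aurkb* at 0.09 ± 0.21, adjusted p = 0.815 and *Foxm1* at 0.46 ± 0.25, adjusted p = 0.244. The median was −0.19, against 0.06 over all genes tested. It was 0.11 without D0 replicate 1 (4 higher, 1 lower) and −0.51 without D0 replicate 2 (1 higher, 7 lower), so the D0 library kept sets the sign of the median. Without W2 replicate 1 the call of *Mybl2* was the only one, and without W2 replicate 2 there was none. With all genes above 0 TPM tested 2 of the 47 were called, and with only the D0 and W2 libraries in the limma fit 0 were, 7 then differing at an unadjusted p under 0.05. For the 7, too, the share of all genes tested was not counted. In all, 8.51% of the 47 were called, against 15.7% of all genes tested.

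From W1 to W2, 45 of the 47 differences were positive, all but those of *Cdc25b* and *Prc1*, and both W2 libraries lay above both W1 libraries in 42 genes, where 27.6% of all genes tested did so. The median was 0.51, against −0.03 over all genes tested. No gene of the 47 passed the adjusted test in limma, with or without a trend of the variance, where 0.0458% of all genes tested were called higher and 0.0686% lower. At an unadjusted p under 0.05, 21 of the 47 differed, among 1900 of the 13110 genes tested. The widest differences were those of *Cenpa* (1.06 ± 0.29, adjusted p = 0.172), *Cdc25c* (1.02 ± 0.16, adjusted p = 0.071) and *Cdca3* (0.99 ± 0.28, adjusted p = 0.179). *Aurka* (0.11 ± 0.16, adjusted p = 0.803) and *Plk1* (0.10 ± 0.23, adjusted p = 0.893) had small differences, and *Mki67* (0.55 ± 0.33, adjusted p = 0.493), *Cdk1* (0.43 ± 0.29, adjusted p = 0.554) and *Ccnb1* (0.75 ± 0.22, adjusted p = 0.188) lay between. These values do not use D0 except through its share of the estimated spread: with either D0 replicate left out, 2 genes were called, both higher, and without W6 replicate 2, 1 was, also higher.

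Between W2 and W6, 20 of the 47 genes rose. All 47 differences were positive, 46 of them without overlap of the libraries (33.2% of all genes tested), and the 20 were called higher and none lower, where 7.99% of all genes tested were called higher and 8.31% lower. The 20 comprised all 3 checkpoint kinases (*Bub1*, *Bub1b*, *Ttk*), *Birc5*, *Incenp* and *Cdca8* of the passenger complex, *Cenpe* and *Ndc80* of the kinetochore, *Dlgap5*, *Hmmr*, *Kif22* and *Kif2c* of the spindle, *Kif20a* and *Kif23* of cytokinesis, and *Aurka*, *Plk1*, *Ccnb1*, *Cdc25c*, *Ncapg* and *Ube2c*. *Ccnb1* rose by 1.14 ± 0.22, adjusted p = 0.0141. *Plk1* rose by 1.12 ± 0.23, adjusted p = 0.0182. *Aurka*, whose W1 and W2 libraries were alike, rose by 1.06 ± 0.16, adjusted p = 0.00574. The largest difference was that of *Ncapg* (1.27 ± 0.31, adjusted p = 0.0293). *Cdk1* (0.86 ± 0.29, adjusted p = 0.0763), *Aurkb* (0.66 ± 0.21, adjusted p = 0.06), *Cdc20* (0.59 ± 0.21, adjusted p = 0.0847), *Top2a* (0.80 ± 0.32, adjusted p = 0.119), *Mki67* (0.44 ± 0.33, adjusted p = 0.375) and *Mybl2* (0.94 ± 0.30, adjusted p = 0.0635) did not pass, and *Foxm1* had the smallest difference, 0.08 ± 0.25, adjusted p = 0.851.

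The median from W2 to W6 was 0.77, against 0.01 over all genes tested. The number called moved with the libraries kept: it was 33 with either D0 replicate left out, 0 with either W2 replicate left out, 6 without W6 replicate 2, 11 with either W1 replicate left out and 8 with one or both W12 replicates left out, and all those called were higher. It was 5 with all genes above 0 TPM tested and 9 with an absolute log2 change of at least 1 required.

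**Figure D3:**
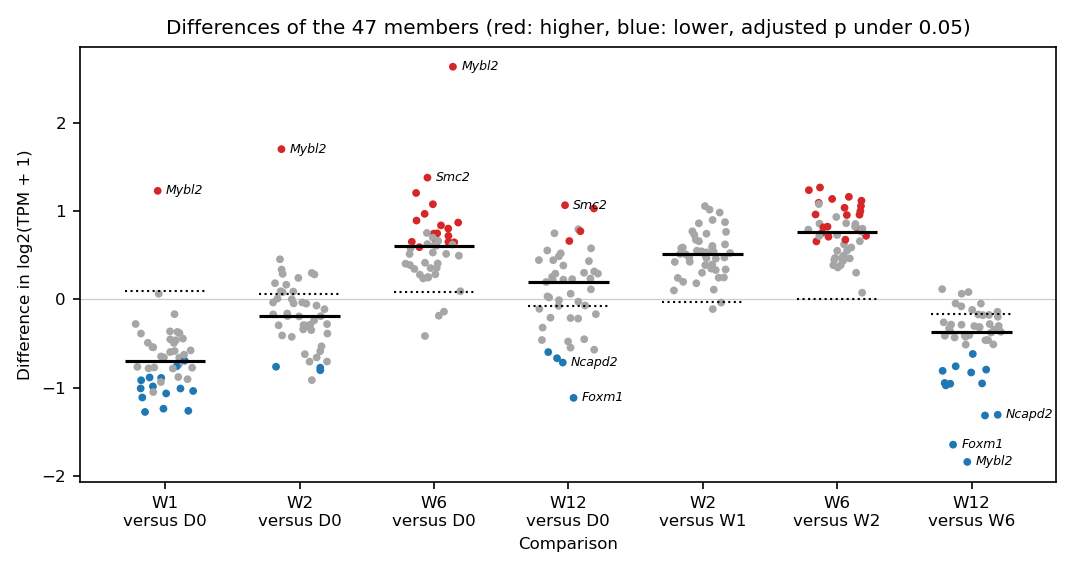
Differences in log2(TPM + 1) of the 47 genes (points) in the 7 comparisons, red where called higher and blue where called lower at an adjusted p under 0.05, with the median of the 47 as a solid line and that of all genes tested as a dotted line. The median lies at −0.69 at W1 and 0.61 at W6 against D0, *Mybl2* stands apart above D0 at W1, W2 and W6, and *Mybl2*, *Foxm1* and *Ncapd2* are among the lowest from W6 to W12.

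At W6 against D0, 17 genes were called higher and none lower, where 18.3% of all genes tested were called higher and 14.1% lower. *Mybl2* rose most, by 2.64 ± 0.30, adjusted p = 0.000512. The condensin subunit *Smc2* (1.38 ± 0.35, adjusted p = 0.018), survivin (*Birc5*, 1.21 ± 0.26, adjusted p = 0.00898), *Ncapg* (1.08 ± 0.31, adjusted p = 0.0273) and *Ndc80* (0.97 ± 0.25, adjusted p = 0.0191) followed. *Plk1* (0.84 ± 0.23, adjusted p = 0.0253) and *Aurkb* (0.75 ± 0.21, adjusted p = 0.024) also passed, with *Cdca8*, *Bub1*, *Bub1b*, *Cenpe*, *Cdc25c*, *Cdca3*, *Kif22*, *Kif2c*, *Kif4* and *Ncapd2*. *Ccnb1* (0.61 ± 0.22, adjusted p = 0.0633), *Cdk1* (0.63 ± 0.29, adjusted p = 0.131), *Mki67* (0.62 ± 0.33, adjusted p = 0.178), *Foxm1* (0.53 ± 0.25, adjusted p = 0.128), *Top2a* (0.52 ± 0.32, adjusted p = 0.249) and *Cdc20* (0.25 ± 0.21, adjusted p = 0.381) did not. The 3 negative differences were all of cytokinesis genes, *Ect2* (−0.42), *Prc1* (−0.18) and *Anln* (−0.14), none of which passed. Both W6 libraries lay above both D0 libraries in 31 genes, where 35.4% of all genes tested did so. The median was 0.61, against 0.08 over all genes tested. Without D0 replicate 1, 31 genes were called higher (median 0.91), and without D0 replicate 2 only 3 were (median 0.29), so the number rests on D0 replicate 2. It was 7 without W6 replicate 2, 10 with either W2 replicate left out and 9 with one or both W12 replicates left out, all higher. It was 4 with all genes above 0 TPM tested, 1 with only the D0 and W6 libraries in the fit, and 4 with an absolute log2 change of at least 1 required. *Mybl2* passed under all 23 alternatives tried for it, between 2.24 and 3.04.

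Few of the genes were called in the grafted W12 cells against D0. Of the 47, 4 were called higher and 4 lower, where 17.9% of all genes tested were called higher and 25.1% lower. Higher were *Smc2* (1.07 ± 0.35, adjusted p = 0.037), *Birc5* (1.03 ± 0.26, adjusted p = 0.0123), *Ndc80* (0.77 ± 0.25, adjusted p = 0.0351) and securin (*Pttg1*, 0.66 ± 0.23, adjusted p = 0.0429). Lower were *Foxm1* (−1.12 ± 0.25, adjusted p = 0.00719), *Ncapd2* (−0.72 ± 0.20, adjusted p = 0.0178), *Nek2* (−0.67 ± 0.23, adjusted p = 0.045) and *Racgap1* (−0.60 ± 0.16, adjusted p = 0.0146). *Mybl2* (0.80 ± 0.30, adjusted p = 0.0577), *Ccnb1* (0.49 ± 0.22, adjusted p = 0.102), *Cdk1* (0.58 ± 0.29, adjusted p = 0.14), *Mki67* (0.22 ± 0.33, adjusted p = 0.623), *Top2a* (0.23 ± 0.32, adjusted p = 0.593), *Aurkb* (−0.21 ± 0.21, adjusted p = 0.441), *Plk1* (−0.48 ± 0.23, adjusted p = 0.129) and *Cdc20* (−0.55 ± 0.21, adjusted p = 0.0611) did not pass.

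The median at W12 against D0 was 0.20, against −0.08 over all genes tested. The split of 4 higher and 4 lower became 7 and 3 under median-ratio scaling and under quantile normalization, and 10 and 2 after a correction for transcript length. Without D0 replicate 1 it was 16 higher and 1 lower, and without D0 replicate 2 it was 1 and 5, with the median at −0.16. Without W12 replicate 1 no gene was called, and without W12 replicate 2, 2 were called, both lower. With either W1 replicate left out it was 2 higher and 3 lower, and with either W2 replicate left out 1 and 3. In all, 3 were called with all genes above 0 TPM tested or an absolute log2 change of at least 1 required, and 1 with only the D0 and W12 libraries in the fit. Of the 47, 17% were called, against 43% of all genes tested.

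From W6 to W12, 13 genes were called lower and none higher, where 13.5% of all genes tested were called lower and 6.66% higher. *Mybl2* (−1.84 ± 0.30, adjusted p = 0.0047) and *Foxm1* (−1.65 ± 0.25, adjusted p = 0.00344) fell most, followed by *Plk1* (−1.32 ± 0.23, adjusted p = 0.00709) and *Ncapd2* (−1.31 ± 0.20, adjusted p = 0.00344). *Aurkb* (−0.96 ± 0.21, adjusted p = 0.0147) and *Cdc20* (−0.80 ± 0.21, adjusted p = 0.0294) fell too, with *Cdc25b*, *Racgap1*, *Nek2*, *Cdca8*, *Incenp*, *Kif22* and *Bub1b*. *Cdk1* (−0.05 ± 0.29, adjusted p = 0.928), *Ccnb1* (−0.12 ± 0.22, adjusted p = 0.746), *Top2a* (−0.29 ± 0.32, adjusted p = 0.578) and *Mki67* (−0.41 ± 0.33, adjusted p = 0.431) did not pass. Both W12 libraries lay below both W6 libraries in 34 genes, where 40.9% of all genes tested did so. The median was −0.37, and that of all genes tested was itself −0.16. With the latter brought near 0 by median-ratio scaling the median of the 47 was −0.20 and 9 were called lower. It was −0.23 with 10 called after quantile normalization, and −0.14 with 9 called after the length correction. Without W12 replicate 1, 3 genes were called lower, without W12 replicate 2, 8, and without W6 replicate 1, 6. With all genes above 0 TPM tested 8 were called, with only the W6 and W12 libraries in the fit 7, and with an absolute log2 change of at least 1 required 4. In all, 27.7% of the 47 were called, against 20.2% of all genes tested.

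The neighbouring part of the cycle did not show the same balance at D0. The 35 genes of S phase and DNA replication, such as those of the MCM helicase, summed to 1308 and 673 TPM at D0, 1064 and 997 at W1, 1419 and 1270.2 at W2, 2197 and 2506 at W6, and 1654 and 1853 at W12. The mitosis and G2/M sum was 2.17 and 2.69 times the S phase sum in the D0 libraries and 1.24 to 1.61 times in the 8 later ones, so D0 lay above all others, by a ratio that each library gives on its own and that was not tested. At W1 against D0, 0 of the 35 S phase genes were called by limma, where 4.1% of all genes tested were called lower and 5.79% higher, 3 differing at an unadjusted p under 0.05, with a median of 0.18, but 12 were called higher without D0 replicate 1 and 2 lower without D0 replicate 2. At W2 against D0, 4 were called higher, where 9.06% of all genes tested were, and the number moved widely with the D0 library kept. At W6 against D0, 32 were called higher and none lower, where 18.3% of all genes tested were called higher, with a median of 1.24, the widest rise being that of *Rrm2*, a subunit of ribonucleotide reductase (2.48 ± 0.41, adjusted p = 0.00283). It was 35 without D0 replicate 1, 20 without D0 replicate 2 and 28 without the W12 libraries. At W12 against D0, 18 (51.4%) were called higher and none lower, where 17.9% of all genes tested were called higher, with a median of 0.87, and it was 31 without D0 replicate 1, 5 without D0 replicate 2 or W12 replicate 1, and 4 without W12 replicate 2. From W2 to W6, 8 were called higher, led by *Ccne1*, cyclin E1 (1.60 ± 0.42, adjusted p = 0.037), where 7.99% of all genes tested were. It was 25 with either D0 replicate left out and 2 with one or both W12 replicates left out, when *Ccne1* was no longer called (limma, adjusted p = 0.0633 without both). From W6 to W12, 5 (14.3%) were called lower, near the 13.5% of all genes tested, the widest difference being that of *Uhrf1* (−1.497 ± 0.27, adjusted p = 0.00718), and the number was 15 with either D0 replicate left out, 0 without W12 replicate 1 (*Uhrf1* then at an adjusted p of 0.0688, limma) and 3 without W12 replicate 2.

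**Figure D4:**
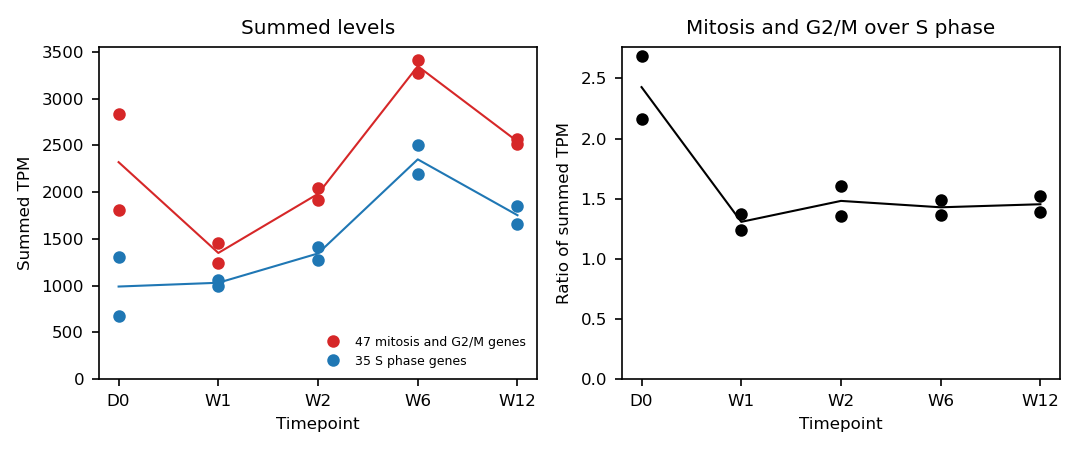
Left, summed TPM of the 47 mitosis and G2/M genes (red) and of 35 S phase genes (blue) in each library (points) with the mean of each timepoint joined by a line; right, the ratio of the former to the latter. The mitotic sum is lowest at W1 (1459.5 and 1240.1 TPM) and highest at W6 (3281 and 3417 TPM), and the ratio is above 2 at D0 alone.

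A further 60 mitotic genes were listed besides the 47. At W1 against D0, 9 of them were called lower and none higher, led by the kinesin *Kif18a* (−1.07 ± 0.21, adjusted p = 0.0139), where 4.1% of all genes tested were called lower. It was 5 lower and 3 higher without D0 replicate 1, 18 lower without D0 replicate 2, and 4 lower without the W12 libraries. At W2 against D0, 3 were called lower, where 6.64% of all genes tested were, and both the number and its direction moved with the D0 library kept. From W1 to W2 none was called, and 20 differed at an unadjusted p under 0.05 (limma). The count over all genes tested is the one given above for that step. From W2 to W6, 20 were called higher and none lower, led by shugoshin (*Sgo1*, 1.43 ± 0.24, adjusted p = 0.00946), which guards cohesion at centromeres, where 7.99% of all genes tested were called higher. It was 40 with either D0 replicate left out and 8 with one or both W12 replicates left out. At W6 against D0, 27 were called higher, led by *Psrc1* (1.92 ± 0.29, adjusted p = 0.002), and 1, *Fam83d* (−0.57 ± 0.18, adjusted p = 0.0417), lower, where 18.3% and 14.1% of all genes tested were. Those higher numbered 39 without D0 replicate 1, 9 without D0 replicate 2 and 19 without the W12 libraries, and the call of *Fam83d* was lost without D0 replicate 1 (limma, adjusted p = 0.146) and with one or both W12 replicates left out (adjusted p = 0.0666 without both). At W12 against D0, 15 were called higher, led by *Cks1b* (1.39 ± 0.24, adjusted p = 0.00238), a CDK subunit, and 10 lower, led by *Lmnb1* (−1.34 ± 0.39, adjusted p = 0.0228), where 17.9% of all genes tested were called higher and 25.1% lower. The call of *Lmnb1* was lost without D0 replicate 1 (limma, adjusted p = 0.114) and without W12 replicate 2 (−0.83, adjusted p = 0.161). The split was 36 higher and 4 lower without D0 replicate 1, 4 and 8 without D0 replicate 2, and 3 and 4 with either W12 replicate left out. From W6 to W12, *Zwint* alone was called higher, by 0.66 ± 0.19, adjusted p = 0.0384, and 11 were called lower, led by *Kifc1* (−1.73 ± 0.33, adjusted p = 0.00903), where 13.5% of all genes tested were called lower. With either D0 replicate left out 17 were lower, and with W12 replicate 1 or 2 left out 4 or 5 were, with none higher, and *Kifc1* was not called without W12 replicate 1 (limma, adjusted p = 0.0798).

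Smaller lists covered the surrounding machinery. Of 17 genes of the anaphase-promoting complex and its cofactors, 0 were called at W1 (5 at an unadjusted p under 0.05), and 17.6% at W6 against D0 (3 higher, led by *Anapc15*, 1.30 ± 0.27, adjusted p = 0.00798), where 18.3% of all genes tested were called higher and 14.1% lower. At W2 against D0 the calls went both ways. The widest were *Anapc5*, higher (0.68 ± 0.12, limma, adjusted p = 0.008), and *Ube2s*, lower (−0.71 ± 0.19, adjusted p = 0.04), the latter not kept with either D0 replicate left out. At W12, 1 was higher, *Anapc15*, and 5 were lower, led by *Anapc2* (−0.96 ± 0.19, adjusted p = 0.00395), 35.3% of the list in all where 43% of all genes tested were called. Without D0 replicate 1 those counts were 6 higher at W6 and 3 higher and 3 lower at W12, without D0 replicate 2 they were 2, and 1 and 3, and with W12 replicate 1 or 2 left out the W12 counts were 1 and 2 or 1 and 3. Of 9 cohesin genes, which hold sister chromatids together, 1 was called in any comparison with D0, *Rad21* at W12 (−0.53 ± 0.15, adjusted p = 0.0234), a call lost without D0 replicate 1 (adjusted p = 0.0722) or with W12 replicate 1 or 2 left out (adjusted p = 0.114 and 0.0673, limma). Of 9 MuvB and pocket protein genes found among 10 listed, none was called at W1 or W2 against D0 (0 and 2 at an unadjusted p under 0.05), and 2 were higher at W6, also with either D0 replicate or the W12 libraries left out, *Rbl1* (p107, 0.99 ± 0.21, adjusted p = 0.00824) leading them. At W12, 1 was higher and 3 were lower, 44.4% of the list in all, the pocket protein gene *Rbl2* (p130) by −0.88 ± 0.22, adjusted p = 0.0124. The split became 3 and 1 without D0 replicate 1, and 0 and 1 without D0 replicate 2, and no gene was called with either W12 replicate left out.

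Of 6 genes that hold CDK1 back, 3 were called lower at W1, W2 and W6 against D0, *Wee1*, *Sfn* and *Gadd45a*, or 2 at W1 without D0 replicate 2, where 4.1%, 6.64% and 14.1% of all genes tested were called lower. *Wee1*, the kinase that places the inhibitory phosphate on CDK1, stood at 92.8 and 162 TPM at D0, 61.2 and 40.7 at W1, 26.4 and 29.0 at W2, 20.9 and 21.4 at W6, and 19.9 and 18.1 at W12. Its difference from D0 at W6 was −2.48 ± 0.27, adjusted p = 0.000457, and between −2.88 and −2.08 with a D0 replicate left out. *Sfn*, 14-3-3 sigma, which keeps CDK1 in the cytoplasm after damage, differed by −2.23 ± 0.19, adjusted p = 0.000236 at W2, and between −2.45 and −2.01 with a D0 replicate left out. *Gadd45a*, like several immediate-early genes, was high at D0, at 41.8 and 28.4 TPM, against 9.44 and 9.88 TPM at W1, and rose from W6 to W12 by 0.91 ± 0.22, adjusted p = 0.0228, a call lost without W12 replicate 1 or 2 (limma, adjusted p = 0.0758 and 0.129). *Chek2*, a DNA damage checkpoint kinase, was higher at W6 than at D0 by 0.61 ± 0.18, adjusted p = 0.0351, a call lost without D0 replicate 2 (limma, adjusted p = 0.172) and without the W12 libraries (adjusted p = 0.0609). *Chek1* was higher at W12 than at D0 by 1.22 ± 0.41, adjusted p = 0.0411, a call lost without D0 replicate 2 (limma, adjusted p = 0.187) and without W12 replicate 1 or 2 (adjusted p = 0.119 and 0.163). *Pkmyt1*, which also phosphorylates CDK1, was called lower at W12 than at D0 with *Wee1* and *Sfn* (25.1% of all genes tested were), a number of 3 that fell to 2 without D0 replicate 1 or with either W12 replicate left out, and changed from W6 to W12 by −1.32 ± 0.23, adjusted p = 0.00671, a call lost without W12 replicate 1 (limma, adjusted p = 0.0642).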

How the data were processed

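RNA-seq libraries of sorted EpdSCs were grouped by timepoint and replicate number from the sample labels. The TPM values were deposited by the authors, who trimmed reads with Skewer, quantified transcripts with Salmon 1.4.0 against a GENCODE index of GRCm38 with the transgene added, and summed them to genes with Tximport 1.12.3. TPM keep no depth, so no counting error can be given, and a test on counts was not possible. Replicates were labelled as biological.

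The genes averaging 1 TPM or more were tested with limma 3.58.1 in R 4.3.3 on log2(TPM + 1), with the means of 5 timepoints, eBayes with a trend, and Benjamini-Hochberg adjustment over all genes tested. Such differences understate the change of low genes. On simulated data for W6 against D0 with 13110 genes, the fit called 88 of 100 genes changed by 2 on the log2 scale, 40 of 100 changed by 1, and 8 unchanged ones. The simulated noise was drawn for each gene independently, so deviations that many genes of a library share were not covered.

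The 47 members, the gene lists and the comparisons were chosen with earlier results of these data known. Statistics are given in full for the 5 widest called differences in each comparison with D0, every gene called against the majority, and 9 genes named in advance (*Mki67*, *Top2a*, *Cdk1*, *Ccnb1*, *Plk1*, *Aurkb*, *Cdc20*, *Foxm1*, *Mybl2*). Genes of other lists were named from the widest called rise and fall of each list in a comparison, and a few further genes were chosen after their values were seen. Alternatives were a pseudocount of 0.1, other filters (all genes above 0, genes averaging 5 TPM or more), quantile normalization, median-ratio scaling, no trend, the 2 timepoints alone, an absolute log2 change of at least 1, a transcript length correction, a replicate block, and each replicate left out. Leaving out both W12 libraries, also with D0 replicate 2, leaving out D0 or W12 libraries for the other lists and each library for the number called in any comparison, and crossed replicate numbers were added after seeing the data. Same-numbered libraries are different mice. Coordinates of genes were read from the GENCODE M21 annotation (GRCm38). A table of the authors' comparison of SOX9+ with SOX9neg placode cells, which holds only fold changes and test statistics, was not used, and the 4 placode libraries were not analysed here. Python 3.11.15 was used for the other steps.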

Additional observations from a re-analysis of the deposited data

How the results depend on the processing

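The pseudocount of 0.1, the filter at 5 TPM, both scalings, the fit without a trend and the length correction left the total called in each comparison within 1.5 times the reported one. The split moved at W12 against D0, from 4 higher and 4 lower to 7 and 3 under both scalings and 10 and 2 after the length correction, and the number lower at W2 went from 3 to 5 under median-ratio scaling. None of the 23 named called values changed sign under its alternatives (504 in all), though not all of these stayed past the threshold. Many of the alternatives, such as the filters, the block and leaving out another timepoint's library, keep the difference itself unchanged. Those could not have turned its sign. With all genes above 0 TPM tested, the counts against D0 were 4 (W1), 2 (W2), 4 (W6) and 3 (W12), with 5 from W2 to W6 and 8 from W6 to W12. With only the libraries of the 2 timepoints in the fit, they were 0, 0, 1 and 1 against D0, 1 from W1 to W2 and 7 from W6 to W12. With an absolute log2 change of at least 1 required, they were 9, 1 (*Mybl2*, higher, which turns the majority at W2), 4 and 3 against D0, 9 from W2 to W6 and 4 from W6 to W12. Without the W12 libraries, 9 were called at W6 against D0 and 8 from W2 to W6, and without D0 replicate 2 as well, 2 at W6 against D0. With each replicate left out in turn, the counts against D0 ranged from 2 to 35 (W1), 0 to 8 (W2), 3 to 31 (W6) and 0 to 17 (W12), and the others from 0 to 2 between W1 and W2, 0 to 33 between W2 and W6 and 3 to 14 between W6 and W12, and from 31 to 44 for genes variable over time. At W2 against D0 the majority turned to higher without D0 replicate 1 (5 called, median 0.11, against −0.51 without D0 replicate 2) and without W2 replicate 1 (1 called), and at W12 the median turned to −0.16 without D0 replicate 2, against 0.41 without D0 replicate 1. The cause was not tested.

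Same-numbered libraries are different mice and share only a number, with correlations of their deviations between −0.13 and 0.18. With a replicate block, 13, 4, 13 and 6 genes were called against D0, 0 from W1 to W2, 14 from W2 to W6, 13 from W6 to W12 and 41 over time, so no count moved by over 1.5 times. With crossed numbers the counts were 15 at W1 and 16 at W6 against D0 and 13 from W6 to W12. As TPM keep no depth, what the depth limits cannot be stated, and 2 replicates per timepoint limit each test.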

Other observations

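Within W6 the replicates ordered the 47 genes differently. The difference of replicate 2 from replicate 1 in log2(TPM + 1) ranged from −0.69 to 0.96 over them, with a median of 0.13. W6 replicate 1 held the highest value of 19 genes, among them *Cdc20*, *Cenpa*, *Plk1* and *Mybl2*, and W6 replicate 2 that of 25, among them *Smc2*, *Top2a*, *Cenpe* and *Prc1*. Across the 47 genes that difference had a Spearman correlation of 0.55 with the length of the longest annotated transcript, against −0.07 across the 13099 genes tested that have a length, and at W12 the correlation across the 47 was −0.47. Between the D0 replicates it was −0.09 across the 47 and 0.33 across the 13099 genes, the widest of the 5 timepoints over all genes. The genes share the libraries, and these values are a description.

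Of the 47 genes, 34 were called in at least 1 of the 7 comparisons. The share of all genes tested called in at least 1 was not counted, so this number cannot be set against it. The number was 43 with either D0 replicate left out, when *Cenpf*, *Prc1*, *Smc4* and *Top2a* were the 4 called in none, and 22 with either W12 replicate left out. The 13 called in none with all libraries were *Mki67*, *Top2a*, *Cdk1*, *Ccna2*, *Ccnb2*, *Cenpa*, *Cenpf*, *Kif11*, *Nuf2*, *Nusap1*, *Prc1*, *Smc4* and *Tpx2*. The D0 replicates of *Mki67* (25.4 and 10.7 TPM) and *Cdk1* (176 and 85.3 TPM) were wide apart.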
